A study of Homo sapiens with 4 samples.

Results

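The genes described are 10 cyclins, cyclin-dependent kinases (CDKs) and E2F transcription factors of interphase and of the transcription cycle: CCND3, CDK6, CCNE2, E2F3, E2F5, CCNH, CDK7, CCNC, CDK13 and CCNL1. They were taken by platform gene symbol, each from its probe set of highest mean, and are 10 of 7749 coding genes measured. All 10 were among the 3876 coding genes whose mean log2 value over the samples reached 7.80, the median of coding genes. The cells were LN229, an established human glioblastoma line grown in DMEM with serum and gentamycin, and 1 line stands here for the tumour type. There were 4 groups of 1 array sample each: total RNA and polysomal RNA of untreated cells, and total RNA and polysomal RNA of cells kept in 5 µM ATO for 6 h. The labels do not spell out ATO, which commonly stands for arsenic trioxide. Polysomal RNA is the RNA that sediments with several ribosomes in a sucrose gradient, and the ratio of polysomal to total RNA is used as a reading of how much of an mRNA is engaged by ribosomes.

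Cyclins bind and switch on CDKs. In G1, D-type cyclins with CDK4 or CDK6, and then E-type cyclins with CDK2, phosphorylate the retinoblastoma protein family, which releases E2F factors and lets the genes of S phase be transcribed. A second branch of the family acts on transcription itself: CDK7 with cyclin H, the Mediator kinases with cyclin C, CDK13 with cyclin K and CDK11 with the L-type cyclins phosphorylate RNA polymerase II or the machinery around it. Unscheduled activity of the D-type cyclin kinases is common in glioblastoma, and many cyclins are short-lived proteins that must be made anew in each cycle.

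Each group held 1 sample, so the differences below have no replicate error and were not tested, and their precision is limited by how few arrays there are. Genes over 1.5-fold were counted, which is the level that the series' design text sets. Values are the deposited log2 values, on which 406 of 65528 probe sets exceeded 16, the ceiling of a 16-bit scanner, so a fold on this scale need not be a fold of RNA, and levels of different genes are not compared. Fewer cells and less RNA per cell cannot be told apart in such bulk samples. The sample titled ATO total RNA carries a source name that calls it polysomal, and was grouped by its title. Over all probe sets its correlation was r = 0.991 with the untreated total sample and r = 0.987 with the ATO polysomal sample. The 64 small nuclear and 7S RNA genes past the filter, which are not translated, had a median of 0.175 in this sample against untreated total RNA. ATO polysomal RNA stood at -2.03 against this sample, and untreated polysomal RNA at -1.685 against untreated total RNA. On these genes the sample titled ATO total RNA thus read like total RNA. Of the 8 glioma markers measured, 6 passed the filter (NES, SOX2, EGFR, FABP7, PTPRZ1 and SPARC), while BCAN and CHI3L1 did not. Of 12 markers of neurons, blood, epithelium and endothelium, GAD1 and CD74 passed it.

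Polysomal RNA was first set against total RNA, the comparison that asks which messages were over-represented on ribosomes. CDK6, CCND3 and CCNC stood over 1.5-fold higher on polysomes in untreated cells, CCNE2 stood over 1.5-fold lower, and in ATO cells CCNC alone passed the threshold. The direct partners CCND3 and CDK6 thus stood high together in untreated cells, and the G1/S cyclins CCND3 and CCNE2 lay on opposite sides. In untreated cells 3 of 10 genes passed 1.5-fold upwards, against 16.2% of all 3876 coding genes, and 1 passed downwards, against 4.72%. In ATO cells 1 passed upwards, against 14.7%, and 0 downwards, against 3.92%. Read against those shares, each count rests on very few genes. In untreated and then in ATO cells, the median difference of the 10 genes was 0.355 and 0.235, beside 0.19 and 0.17 for all coding genes. This general shift bears on every polysomal value: with each sample centred on its median over the filtered genes, no gene of the 10 stood over 1.5-fold higher in either state, and 2 (CCNE2 and CDK13) stood over 1.5-fold lower in untreated cells. Under that centring the shares of coding genes past 1.5-fold were 6.04% upwards and 9.88% downwards without ATO, and 6.27% upwards with it.

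CCND3 (Entrez gene 896, chromosome 6) encodes cyclin D3, a D-type cyclin that activates CDK4 and CDK6. Its log2 values were 11.90 in untreated total, 11.69 in ATO total, 12.55 in untreated polysomal and 11.90 in ATO polysomal RNA. The untreated polysomal sample stood above the other samples, which lay close together. The polysomal minus total difference was 0.65 in untreated cells, which is 1.57-fold, and 0.21 in ATO cells. A second CCND3 probe set, with no Entrez identifier, read 4.63, 4.75, 4.86 and 5.23 in the same order, close to the median of all probe sets (4.22 to 4.26), and did not show the high untreated polysomal value.

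CDK6 (Entrez gene 1021, chromosome 7), the catalytic partner of D-type cyclins, had log2 values of 10.86 in untreated total, 10.88 in ATO total, 11.60 in untreated polysomal and 11.15 in ATO polysomal RNA. Both total samples were nearly equal and both polysomal samples stood above them, the untreated one higher. The difference was 0.74 in untreated cells (1.67-fold), above that of 92.3% of coding genes, and 0.27 in ATO cells, above that of 58.6%.

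CCNE2 (Entrez gene 9134, chromosome 8) encodes cyclin E2, which activates CDK2 at the entry to S phase and is itself an E2F target. It read 9.96 in untreated total, 9.68 in ATO total, 9.32 in untreated polysomal and 9.41 in ATO polysomal RNA. Both polysomal samples lay below both total samples. The difference was -0.64 in untreated cells, 1.56-fold lower on polysomes and above only 3.66% of coding genes, and -0.27 in ATO cells.

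The E2F factors differed from each other. E2F5 (Entrez gene 1875, chromosome 8), a repressor-type E2F that works with the pocket proteins p107 and p130, read 10.52 in untreated total, 10.13 in ATO total, 11.02 in untreated polysomal and 10.55 in ATO polysomal RNA. Within each state the polysomal value was the higher, by 0.50 in untreated and 0.42 in ATO cells. E2F3 (Entrez gene 1871, chromosome 6), an activator E2F restrained by the retinoblastoma protein, read 9.37, 9.27, 9.28 and 9.06 in the same order. Its polysomal minus total differences were -0.09 and -0.21, both on the low side of the general shift.

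**Figure D1:**
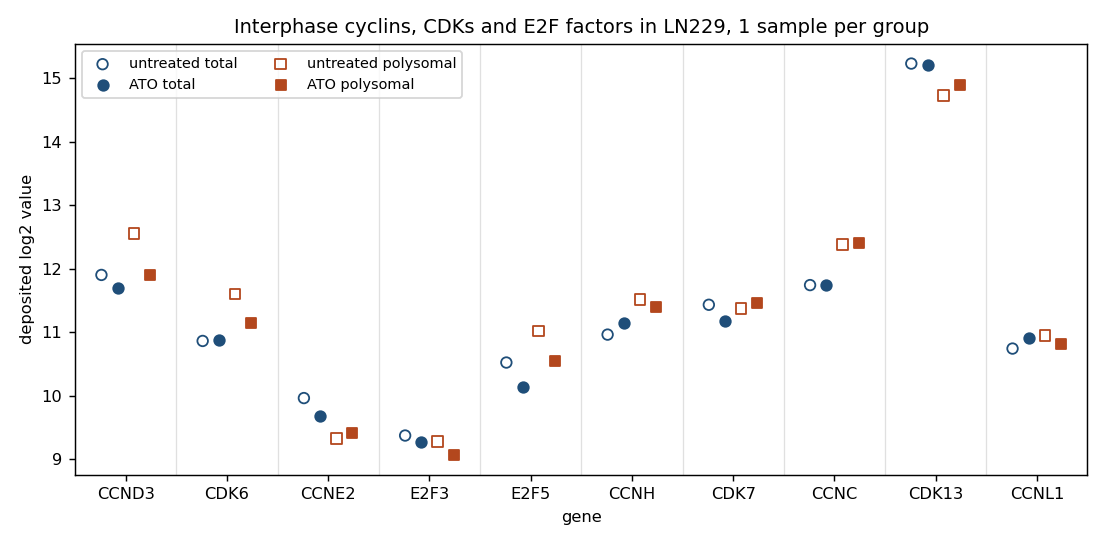
Deposited log2 value (vertical axis) of each of the 10 genes (horizontal axis) in its 4 samples. Circles are total RNA, squares polysomal RNA, open symbols untreated and filled symbols ATO cells, with 1 sample per symbol and no error bar. Within a gene, both squares lie above both circles for CCNC, CDK6, CCNH and E2F5 and below them for CCNE2 and CDK13. Heights of different genes are not comparable.

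Among the transcriptional kinases and their cyclins, CCNC (Entrez gene 892, chromosome 6) had the most even pattern. It encodes cyclin C, the partner of CDK8 and CDK19 in the kinase module of Mediator. It read 11.74 in untreated total, 11.74 in ATO total, 12.38 in untreated polysomal and 12.41 in ATO polysomal RNA. The polysomal samples stood together, above the total samples, by 0.64 in untreated cells (1.56-fold) and 0.67 in ATO cells (1.59-fold).

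CCNH and CDK7 encode the cyclin and the kinase of the CDK-activating kinase, which phosphorylates other CDKs and, within the general factor TFIIH, the tail of RNA polymerase II. CCNH (Entrez gene 902, chromosome 5) read 10.96 in untreated total, 11.14 in ATO total, 11.51 in untreated polysomal and 11.40 in ATO polysomal RNA. Its polysomal values stood above its total values, by 0.55 in untreated and 0.26 in ATO cells. CDK7 (Entrez gene 1022, chromosome 5) read 11.43, 11.17, 11.37 and 11.46 in the same order. Here 3 samples lay within 0.09 of each other and ATO total stood lowest, so the difference was -0.06 in untreated and 0.29 in ATO cells. The cyclin and its kinase were therefore at unlike polysomal/total positions in untreated cells, above 81.1% and 27.7% of coding genes, and at like positions in ATO cells, above 57.6% and 60.4%.

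CDK13 (Entrez gene 8621, chromosome 7), which with cyclin K phosphorylates the polymerase tail during elongation, read 15.23 in untreated total, 15.21 in ATO total, 14.73 in untreated polysomal and 14.89 in ATO polysomal RNA. Both total samples were nearly equal and both polysomal samples lay below them, by 0.50 on the log2 scale in untreated cells (difference -0.50) and 0.32 in ATO cells (difference -0.32). CCNL1 (Entrez gene 57018, chromosome 3), cyclin L1, which binds CDK11 and acts in pre-mRNA splicing, varied least. It read 10.74, 10.90, 10.95 and 10.81, a range of 0.21, with differences of 0.21 and -0.09.

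The first bases of an mRNA are shown because a cap-adjacent C followed by a run of pyrimidines marks terminal oligopyrimidine (TOP) messages, whose polysome loading depends on mTOR. RefSeq promoter windows of GRCh38.p14 matched 8 of the 10 genes, with 15 annotated starts. CCNE2 and E2F5 had no window, so neither their starts nor their promoter letters were read. The lines give 10 bases before and 15 bases from each start of the genes over 1.5-fold higher on untreated polysomes and of CDK13 on the low side, with capitals marking any pyrimidine run that begins at the start itself.
CCND3 start 1, chr6:41939191-41939215, minus strand: aacaggattcCTCTTCCTgccaagt
CCND3 start 2, chr6:41941794-41941818, minus strand: cggggcgcctgtcagggaagcggcg
CCND3 start 3, chr6:42048674-42048698, minus strand: cggactttgtaaacacttcgccact
CDK6 start 1, chr7:92833945-92833969, minus strand: ctcccgttccactgcgtcccgcgcc
CDK6 start 2, chr7:92836559-92836583, minus strand: cttccccagagtctgattacctgct
CCNC start 1, chr6:99568646-99568670, minus strand: tcctttcgccgtcgccgccgcggag
CCNC start 2, chr6:99568800-99568824, minus strand: aacactagttCTCTTCaatctcagc
CDK13 start 1, chr7:39950246-39950270, plus strand: cgaaggtggtacttccgcgttgcgc
CDK13 start 2, chr7:39950350-39950374, plus strand: agcgcccggcgcatctggtgttttc

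A start with C and at least 5 pyrimidines in a row occurred at 2 of the 15 starts, one of CCND3 (a run of 8) and one of CCNC (a run of 6), and at 4.07% of all 35116 annotated starts. CDK6, the highest of the 10 on untreated polysomes, had none. Which start LN229 cells use was not measured by these arrays, so the match describes the annotation and not the messages read.

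Letters of 5 promoter elements were also looked for on both strands: E2F, since E2F genes are known to be controlled by E2F factors, the cyclic AMP response element (CRE), the ETS site, the CCAAT box and the TATA box. In the 300-base windows the E2F letters TTTCCCGC, on either strand, were found in 1 of the 15, at E2F3, against 1.63% of all windows. The alternative TTTGGCGC was found in 0 of the 15, against 0.652%. The CRE letters TGACGTCA were found at CCNL1, against 1.85% of all windows. The ETS letters CGGAAGT were in 3 of the 15 (at CDK7 and CDK13), against 6.83%, the letters CCAAT in 4 (at CCND3, CCNC and E2F3), against 34.6%, and TATAAA in 0, against 11.5%. Windows of close starts of a gene overlap, so a site can be counted more than once, as the ETS letters of CDK13 were. Capitals mark the match, which for E2F3 reads as the reverse complement and begins 53 bases before the start, and for CCNL1 begins 86 bases before it.
E2F3, chr6:20401815-20401844, plus strand: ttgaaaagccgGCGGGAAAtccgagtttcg
CCNL1, chr3:157160215-157160244, minus strand: gcccggcgtggTGACGTCAgggcggaagcg

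Total RNA, which gives the abundance of each message, was then compared between ATO and untreated cells. The 10 genes differed little. E2F5 stood lowest, with a difference of -0.39 (1.31-fold lower) that was undercut by 2.04% of coding genes, and CCNE2 (-0.28), CDK7 (-0.26) and CCND3 (-0.21) were also on the low side. CCNH (0.18) and CCNL1 (0.16) were highest, CDK6 (0.02), CDK13 (-0.02) and CCNC (0.00) were at or near 0, and E2F3 was at -0.10. None of the 10 passed 1.5-fold, as 0.103% of coding genes did upwards and 0.361% downwards. The median of the 10 was -0.06, against -0.02 for all coding genes.

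In polysomal RNA, CCND3 was 1.57-fold lower with ATO (difference -0.65), and only 0.413% of coding genes stood lower still. E2F5 followed at -0.47 and CDK6 at -0.45, so the D-type cyclin and its kinase were both lower on ATO than on untreated polysomes. The same untreated polysomal sample gave their high polysomal minus total differences in untreated cells, so these readings are not independent. E2F3 (-0.22), CCNL1 (-0.14) and CCNH (-0.11) lay below 0, and CDK13 (0.16), CCNE2 and CDK7 (0.09 each) and CCNC (0.03) above it. Of the 10, CCND3 alone passed 1.5-fold downwards, against 0.877% of coding genes, and 0 passed upwards, against 0.258%. The median of the 10 was -0.125, against -0.02 for all coding genes. When both CCND3 probe sets were averaged, the CCND3 difference became -0.14 and its polysomal minus total difference in untreated cells 0.44, neither past 1.5-fold.

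**Figure D2:**
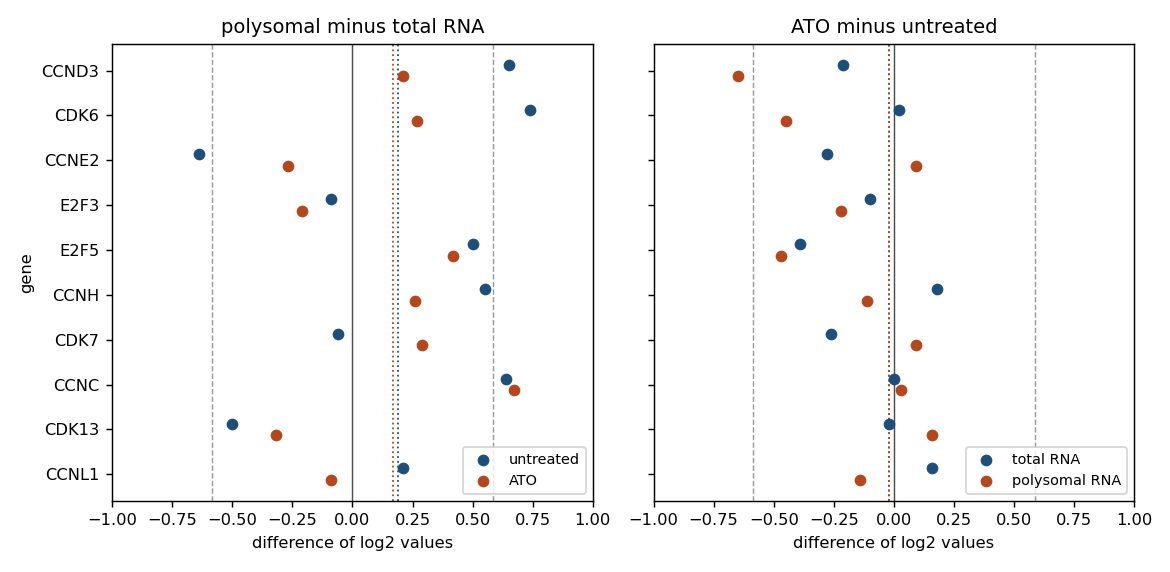
Differences of log2 values (horizontal axes) for the 10 genes (vertical axis). The left panel gives polysomal minus total RNA in untreated (blue) and ATO cells (orange), and the right panel gives ATO minus untreated in total (blue) and polysomal RNA (orange). Each point is 1 difference between 2 samples, dashed lines mark 1.5-fold and dotted lines the medians of 3876 coding genes in the matching colour. CCNC lies past the dashed line in both states, and CCND3 is past it on the left side of the right panel.

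The change of the polysomal/total ratio with ATO combines all 4 samples. CDK6 (-0.47) and CCND3 (-0.44) had the lowest ratio changes of the 10, with 4.26% and 5.16% of coding genes lower still, followed by CCNL1 (-0.30) and CCNH (-0.29). With both CCND3 probe sets averaged, the CCND3 ratio change was -0.095, nearer 0 than those of CCNL1 and CCNH. For CDK6 the total values were nearly equal, so its ratio change lay in the polysomal samples, whereas for CCND3 total RNA was lower as well. CCNE2 (0.37), CDK7 (0.35) and CDK13 (0.18) had ratio changes above 0. In CCNE2 and CDK7 the total value was lower with ATO than without it, by 0.28 and 0.26 on the log2 scale (differences -0.28 and -0.26), and the polysomal values differed by 0.09 between the states. E2F3 (-0.12), E2F5 (-0.08) and CCNC (0.03) had ratio changes near 0, and the lower E2F5 values with ATO were of like size in both fractions. None of the 10 had a ratio change over 1.5-fold, as 1.6% of coding genes did upwards and 2.01% downwards.

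**Figure D3:**
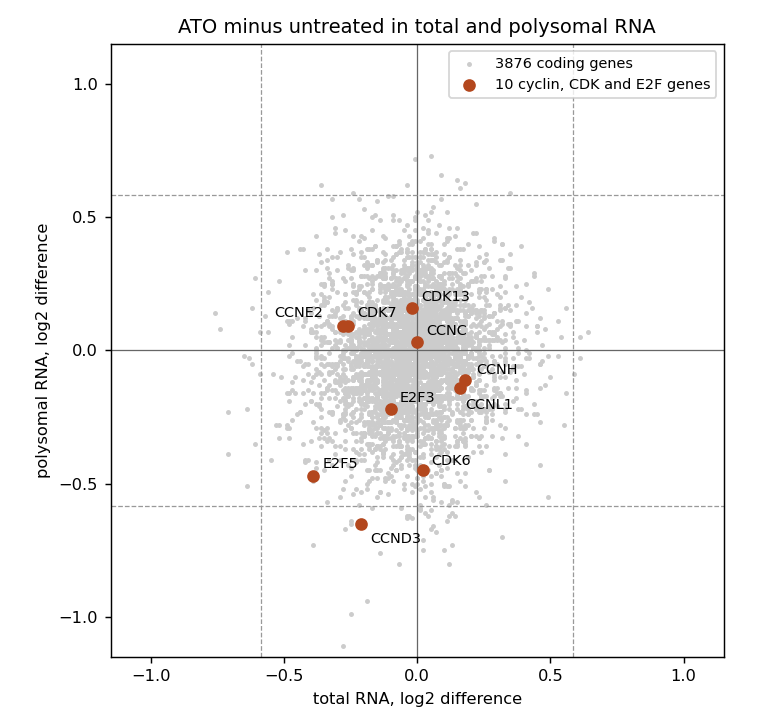
ATO minus untreated difference of log2 values in total RNA (horizontal axis) and polysomal RNA (vertical axis). Grey points are 3876 coding genes, orange points the 10 named genes, each from 1 sample per group, and dashed lines mark 1.5-fold. CCND3 (-0.21, -0.65), E2F5 (-0.39, -0.47) and CDK6 (0.02, -0.45) lie lowest on the vertical axis among the 10.

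Genes most like each of the 10 were sought as those with the smallest Euclidean distance over the 4 log2 values, after each gene's own mean was taken away. The nearest to CCND3 was H2BC3 (distance 0.083) and the nearest to CDK6 was H2AC14 (0.043), both replication-dependent histone genes. The next nearest, TMEM171 to CCND3 (0.099) and ANAPC10 to CDK6 (0.046), were almost as close and are not histone genes. For CCNC the nearest was FST (0.0087), for CCNH SHARPIN (0.030), for CDK7 SENP5 (0.026), for CDK13 PROX1 (0.010) and for CCNL1 ANKRD36C (0.010). For CCNE2 it was MIA3 (0.067), for E2F3 TGFBR3 (0.037) and for E2F5 COMMD5 (0.037). Among the 10 themselves the closest pair was CCND3 with E2F5 (0.18), then CCNE2 with CDK13 (0.20) and CCND3 with CDK6 (0.23). These likenesses rest on 4 values per gene.

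Partner genes of the same pathways, in 11 lists, were read beside the 10. None of the G1/S cyclins and CDKs outside the 10 was analysed here. Of the CDK inhibitors CDKN1A was measured, the p21 inhibitor of CDK2, and stood high on polysomes in both states (1.03 untreated, 1.05 ATO) and near 0 with ATO in total (0.02) and polysomal RNA (0.04). Among 9 G1/S regulators past the filter, 2 stood over 1.5-fold higher on untreated polysomes, against 16.2% of all coding genes, and 0 lower. These were SKP2 (0.75, and 0.48 in ATO cells), the substrate receptor that marks p27 for degradation, and CKS1B (0.66, 0.58), its cofactor. SKP2 was also low with ATO in polysomal RNA (-0.40, against -0.13 in total RNA).

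The E2F target genes of G1/S, a list that leaves out CCNE2, had medians below 0 on polysomes, -0.43 in untreated and -0.39 in ATO cells. Of 9 genes past the filter, 3 stood over 1.5-fold lower in each state, against 4.72% and 3.92% of all coding genes, and 0 higher. DTL (-1.08, -1.35), a substrate receptor of the CUL4 ubiquitin ligase, was lowest in both states. The replicative helicase subunit MCM6 (-0.68, -0.72) passed 1.5-fold in both states, MCM3 (-0.75, -0.49) in untreated cells and ORC1 (0.03, -0.72), a subunit of the origin recognition complex, in ATO cells. The ribonucleotide reductase subunit RRM2 stood at -0.43 and -0.38. With ATO 7 of the 9 were below 0 in total RNA and 5 in polysomal RNA, against 54.0% and 52.8% of all coding genes. ORC1 (-0.64) passed 1.5-fold downwards in polysomal RNA, as 0.877% of all coding genes did. Among 6 E2F, DP and DREAM genes past the filter none passed 1.5-fold on polysomes in either state or with ATO in either fraction. Their medians were 0.205 in untreated and -0.24 in ATO cells, with TFDP2, a dimer partner of E2F factors, at 0.04 and -0.29 and LIN9 at -0.20 and -0.51. With ATO all 6 were above 0 in total RNA (median 0.21), against 43.7% of all coding genes, and 5 were below 0 in polysomal RNA (median -0.13), against 52.8%.

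Of the TFIIH genes, partners of CCNH and CDK7, 3 passed the filter and 2 stood over 1.5-fold higher on polysomes in both states, where 16.2% and 14.7% of all coding genes did. GTF2H5 stood at 0.96 and 0.75 and GTF2H2 at 0.61 and 0.65, although near-identical GTF2H2 copies can share probes, and the helicase gene ERCC3 at 0.30 and 0.35. Of 8 Mediator genes, partners of CCNC, 6 were above 0 in each state, near the 66.3% and 67.0% of all coding genes, with medians of 0.275 and 0.39. MED8 (0.61, 0.56) passed 1.5-fold in untreated cells, MED28 (0.37, 0.64) in ATO cells, and MED23 (-0.38, -0.54) was lowest. CDK11A, a partner kinase of CCNL1, stood at -0.59 and -0.61, CDK11B at -0.13 and -0.50 and CCNL2 at 0.35 and 0.70, with CDK11A and CDK11B being near-identical copies. None of 6 elongation genes passed 1.5-fold, with CCNT2, a cyclin of CDK9, at 0.41 and 0.56 and LARP7 at 0.38 and 0.31.

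Of 3 G2/M genes none passed 1.5-fold on polysomes, with CCNA2 at 0.04 and 0.32, CCNB1 at -0.25 and -0.18 and CDC25C at -0.32 and -0.58. Of the other cyclins and CDKs 6 passed the filter. CCNG1, a p53-induced cyclin, stood at -0.74 and -0.45, CDK5 at 0.67 and 0.44 and CCNG2 at 0.34 and 0.69. Over the 54 partner genes past the filter the medians were 0.14 in untreated and -0.01 in ATO cells, with 7 over 1.5-fold higher and 5 lower in untreated and 6 and 4 in ATO cells. All coding genes had shares of 16.2% higher and 4.72% lower, then 14.7% and 3.92% with ATO, and medians of 0.19 and 0.17. With ATO 0 of the 54 passed 1.5-fold in total RNA in either direction, where 0.103% of all coding genes did upwards and 0.361% downwards. In polysomal RNA ORC1 alone passed it downwards, against 0.877%, and 0 passed upwards, against 0.258%.

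**Figure D4:**
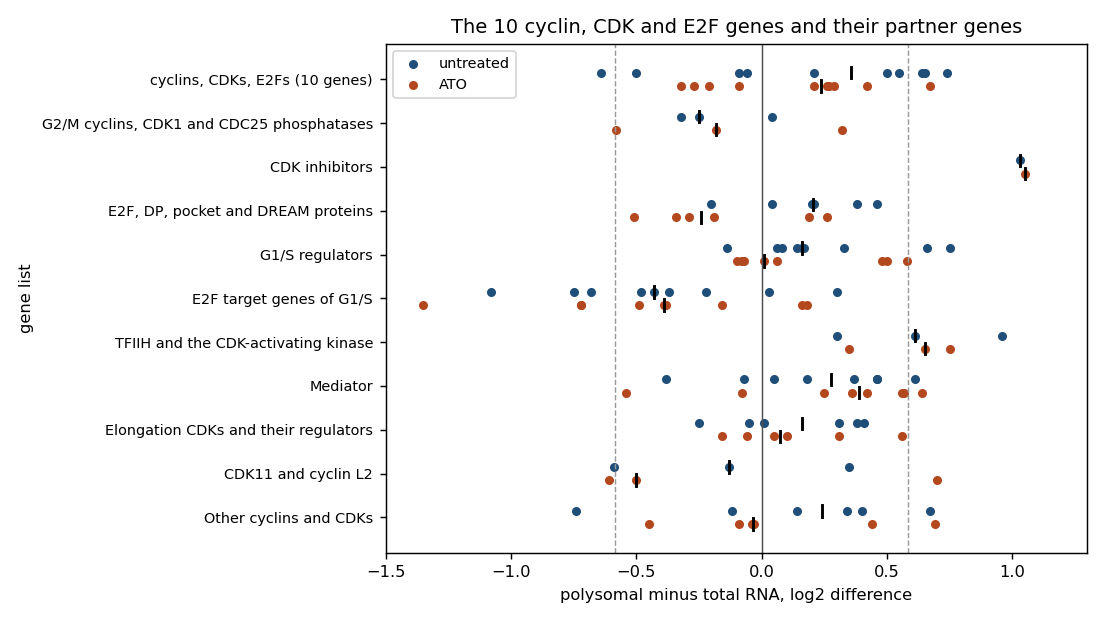
Polysomal minus total difference of log2 values (horizontal axis) for the 10 genes and for partner genes past the level filter, by list (vertical axis). Blue points are untreated and orange points ATO cells, 1 point per gene, black ticks are list medians and dashed lines mark 1.5-fold. The E2F target list lies mostly below 0 and the TFIIH list above it, in both states.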

How the data were processed

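The deposited values were log2 array values, which the authors made with Affymetrix Expression Console, per the submitters' processing notes. Per the series' design text, data of technical triplicates were pooled and taken into the Transcriptome Analysis Console. Versions, summary method, normalization and genome build were not given in the sources used here. Values were used as deposited, and medians over all probe sets were 4.22 to 4.26.

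Of 65528 probe sets, 16127 had 1 gene symbol in the platform annotation, 419 had several and 48982 were unnamed there. Symbols were updated, and coding genes found, through Entrez identifiers in RefSeq (GRCh38.p14). Differences were formed in Python 3.11.15 with pandas 2.3.3, and the arithmetic was tested on simulated data. The 10 genes, the partner lists and the tests were chosen with earlier results of these data known. From each list, up to 4 genes with the largest polysomal minus total differences, averaged over both states, and up to 4 with the largest ATO differences, averaged over both fractions, could be named. The 11 alternatives covered scaling, filter, offset, threshold, probe sets, background genes and a loess trend (span 0.3).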

Additional observations from a re-analysis of the deposited data

Results flagged for a closer look

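In 6 of the 10 genes the ATO difference had opposite signs in total and polysomal RNA, as in 44.9% of all coding genes, and in 2 the polysomal minus total difference had opposite signs in untreated and ATO cells, as in 16.6%. With 1 sample per group none of these differences between fractions or states was tested. With total RNA first, CDK6 had ATO differences of 0.02 and -0.45, a difference of -0.47. CCNE2 stood at -0.28 and 0.09, a difference of 0.37. CDK7 stood at -0.26 and 0.09, a difference of 0.35, and its polysomal minus total difference turned from -0.06 to 0.29. CCNL1 stood at 0.16 and -0.14, a difference of -0.30, and its polysomal minus total difference turned from 0.21 to -0.09. CCNH stood at 0.18 and -0.11, a difference of -0.29. CDK13 stood at -0.02 and 0.16, a difference of 0.18.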

How the results depend on the processing

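No paired analysis was possible because each group has 1 sample, and no sample could be left out. None of the single-gene values past 1.5-fold turned its direction under the 11 alternatives. With samples centred on all probe sets, 4 genes stood over 1.5-fold higher on untreated polysomes, CCNH (0.59) now among them, against 18.9% of coding genes. For polysomal minus total RNA, the median of the 10 genes became 0.165 in untreated and 0.065 in ATO cells with samples centred on the filtered coding genes. After the loess subtraction it was 0.181 and 0.031. Both settings left 0 genes over 1.5-fold higher in either state and 2 lower in untreated cells. Centring on the filtered coding genes put 6.04% of all coding genes higher and 9.88% lower in untreated cells, and 6.27% higher in ATO cells. The loess subtraction gave shares of 6.48%, 9.31% and 5.73% in the same order. Against 13.2% of coding genes, quantile normalization left 1 of the 10 higher in untreated cells. With the filter at the 75th percentile 5 of the 10 genes remained, with 0 lower in untreated cells, against 4.79% of coding genes. Their medians were 0.55 (untreated polysomal minus total), 0.03 (ATO in polysomal RNA) and 0.03 (ratio change). At a lower threshold, a log2 difference over 0.32, 5 genes were higher and 2 lower on untreated polysomes, 2 higher on ATO polysomes, 1 lower with ATO in total RNA, 3 lower with ATO in polysomal RNA, and 2 higher and 2 lower in ratio. All coding genes gave 36.6%, 13.03%, 35.6%, 4.75%, 7.89%, 10.5% and 10.6% in the same order. At 2-fold all of these counts were 0, and the shares of all coding genes were at most 1.50%. With probe sets averaged, 0 genes were over 1.5-fold lower with ATO in polysomal RNA, through the second CCND3 probe set, against 0.851% of coding genes. Of all recomputed values, 90 counts stayed within 1.5 times and 48 medians within 0.1 of those reported, while 20 counts and 7 medians, given above, did not.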

Other observations

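Among the 54 partner genes, 0 had a polysomal/total ratio over 1.5-fold higher in ATO than in untreated cells, against 1.6% of all coding genes. A ratio over 1.5-fold lower was found for 2 partner genes, against 2.01%. They were named after their values were seen. ORC1, of the origin recognition complex, stood at 0.03 on untreated and -0.72 on ATO polysomes, a ratio change of -0.75, with total RNA at 0.11. MYBL1, a MYB-family transcription factor, stood at 0.38 and -0.34, a ratio change of -0.72, with total RNA at 0.27.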
